A study of Mus musculus with 24 samples.

Results

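The mitochondrial genome is a small circular DNA that every muscle fibre carries in many copies. This report describes its genes in mouse gastrocnemius, the large muscle of the calf. They were taken as all genes of the deposited count table whose symbol begins with mt-. The rule found 37 of 55416 genes, made up of 13 protein-coding mRNAs, 2 rRNAs and 22 tRNAs. RNA was sequenced from the gastrocnemius of 24 mice, 6 of each sex in the sham group and 6 of each sex in the SMC group. All were wild type, of the C57BL/6J strain in the study's methods, bought as young adults and fasted for 4 h before tissue collection. SMC stands for the small mouse cage, which restricts spontaneous movement and was used for 8 weeks, while sham mice stayed ambulatory. No group carried a transgene or a second genotype, and per the study's methods mice were anaesthetised with ketamine and xylazine before tissue was taken. The comparison of SMC with sham mice asks how RNA of the muscle differed after enforced inactivity, and the presence of both sexes allows the same question for males against females.

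As background, both strands of the mitochondrial genome are read as long transcripts by a dedicated polymerase. The tRNAs lie between most of the other genes and are cut out, which frees the mRNAs and rRNAs. The heavy-strand group holds 12 mRNAs, both rRNAs and 14 tRNAs, and the light-strand group holds mt-Nd6 and 8 tRNAs. The mRNAs encode subunits of complex I (mt-Nd1 to mt-Nd6 and mt-Nd4l), complex III (mt-Cytb), complex IV (mt-Co1 to mt-Co3) and the ATP synthase (mt-Atp6 and mt-Atp8). The rRNAs mt-Rnr1 and mt-Rnr2 form the cores of the small and the large subunit of the mitochondrial ribosome. Everything else that copies, reads, cuts, modifies and translates these RNAs is encoded in the nucleus, and oxidative muscle fibres are rich in mitochondria.

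Library totals lay between 23026627 and 36880413 counts. Levels are given as CPM, counts per 1000000 of a library total that was scaled by the trimmed mean of M-values (TMM). The sex-linked genes matched the labelled sex in 24 of 24 libraries. All 6 skeletal muscle markers were found, and their summed level lay between 63880 and 140220 CPM. Male sham replicate 4 and female sham replicate 7 stood apart in 10 slow fibre markers, all of them detected in every library. Their summed level was 86.4 CPM in the male and 72.9 CPM in the female mouse, while the other 22 libraries lay between 692 and 4459 CPM. Among 28 mitochondrial genes that could be tested, male sham replicate 4 was the lowest of its group in 26. Female sham replicate 7 was the lowest in 1, and female sham replicate 8 in 18. Results that rest on these libraries are therefore also given without them.

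Levels between genes differed by orders of magnitude even per length, and the low mRNAs were neighbours on the genome. In mean CPM per kilobase over the 24 mice, mt-Co1, the catalytic core of complex IV, was highest at 13785. It was followed by mt-Nd1 at 9169, mt-Cytb at 8818, mt-Nd2 at 7358, mt-Nd5 at 5464, mt-Nd4 at 3399 and mt-Nd6 at 1117. The other 6 mRNAs (mt-Co2, mt-Atp8, mt-Atp6, mt-Co3, mt-Nd3 and mt-Nd4l) lay between 16.3 and 57.0 CPM per kilobase. These 6 lie side by side in the stretch from mt-Ts1 to mt-Nd4l and together held 0.188% of the mRNA counts. The 5 tRNAs of that stretch held 190 counts in all 24 libraries, which was 0.286% of the tRNA counts.

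The low mRNAs shared something else that their selection did not use. Every 50-base word of each gene's transcript was looked up in all other annotated mouse transcripts, which include nuclear copies of mitochondrial DNA. Nuclear sequence outside annotated transcripts was not searched. For mt-Co2, mt-Atp6, mt-Co3, mt-Nd3 and mt-Nd4l, 97.99% to 100% of these words also occurred in another gene. The share was 62.2% for mt-Nd4, 51.1% for mt-Co1, 8.2% or less for mt-Nd2, mt-Nd5 and mt-Rnr2, and 0% for the other members. mt-Atp8 was the exception, with a low level and no shared word, and 43 of its 204 bases overlapped mt-Atp6. How reads with several matches or on overlapping genes were counted is not given in the sources used here, so the levels of these genes cannot be read as RNA abundance. The ends of mt-Co2 and of its closest nuclear copy Gm28661 (from GENCODE M21 transcripts, bases 625 to 684 and 625 to 681, both transcript strands 5′ to 3′) are shown because mt-Co2 carries the call described below. Capitals mark the last 3 bases of mt-Co2, which the annotated copy lacks, and over the other 681 bases both had 0 differences.

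mt-Co2: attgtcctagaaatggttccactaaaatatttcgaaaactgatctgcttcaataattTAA

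Gm28661: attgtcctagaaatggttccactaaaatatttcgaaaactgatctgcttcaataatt

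The starts of mt-Nd3 and its nuclear copy Gm28438 (bases 1 to 60 of each transcript) differ at a single place, T3C, counted from 1 at the 5′ end and marked by the capital. It was the 1 difference over the 345 bases of the copy.

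mt-Nd3: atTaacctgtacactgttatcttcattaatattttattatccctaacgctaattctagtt

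Gm28438: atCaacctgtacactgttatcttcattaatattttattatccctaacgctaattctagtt

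**Figure D1:**
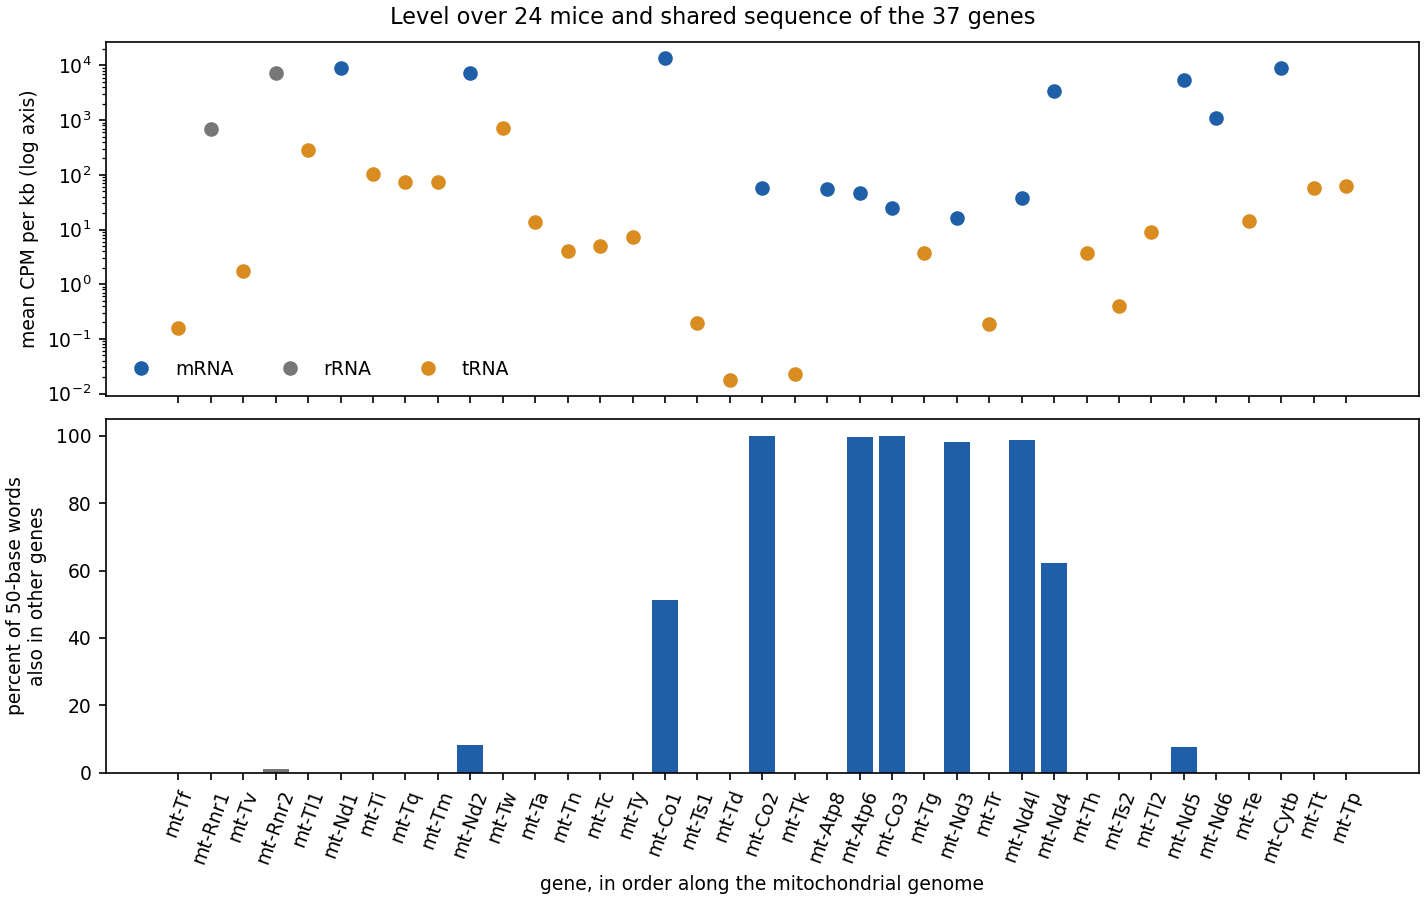
Mean level of each of the 37 genes over 24 mice (top, CPM per kilobase on a log axis) and the percent of its 50-base words that occur in another annotated gene (bottom), in order along the mitochondrial genome. The mRNAs between mt-Ts1 and mt-Nd4l lie at 57.0 CPM per kilobase or lower, and all of them but mt-Atp8 share at least 97.99% of their words with another gene.

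The share of each library on the mitochondrial genome overlapped between SMC and sham mice. The share of all counts was 4.11% to 10.2% in male sham mice, with a median of 8.23%, and 6.41% to 9.58% in male SMC mice, with a median of 8.28%. In female sham mice it was 4.44% to 8.51%, with a median of 6.99%, and in female SMC mice 5.87% to 8.96%, with a median of 7.59%. All 4 ranges overlapped. Of the members' counts, 83.52% fell on mRNAs, 16.35% on rRNAs and 0.1312% on tRNAs. The libraries had been depleted of rRNA before sequencing, so rRNA values are what remained, and tRNA counts come from a protocol not made for such short RNAs. The part of either step in the levels was not tested.

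**Figure D2:**
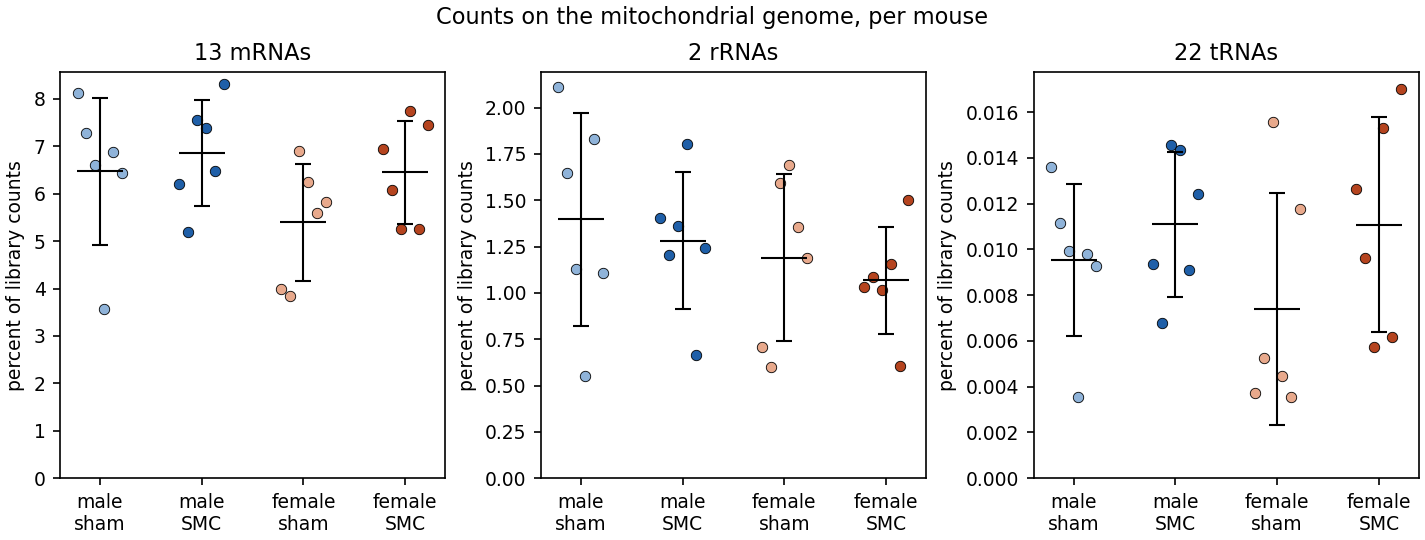
Percent of each library's counts on the 13 mRNAs, 2 rRNAs and 22 tRNAs of the mitochondrial genome. Each point is 1 mouse (6 per group), the horizontal bar is the mean and the error bar the SD, and in each class the 4 groups overlap.

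The mRNAs were mostly fitted higher in SMC than in sham mice, by small amounts, and 1 of them passed the test. In males, 13 of 13 mRNAs had a log2 fold change above 0, with a median of 0.24, which was 0.125 without male sham replicate 4. Of all 16408 genes tested, 49.1% lay above 0, with a median of -0.00441. In females, 12 of 13 lay above 0, with a median of 0.38, which was 0.263 without female sham replicate 8. Of all genes, 47.6% lay above 0 there. These counts depend on the scaling and on single libraries. Members also moved together within libraries: male sham replicate 4 was the lowest of its group in 26 of 28 and female SMC replicate 24 the highest in 23. A count of members is therefore not a count of independent results, and the share of all genes is no yardstick of chance for it. With library totals in place of TMM, a change that shifted the median of all genes to -0.133 in males and -0.149 in females, 11 and 12 of 13 mRNAs lay above 0. Without male sham replicate 4 and female sham replicate 7, 12 of 13 did so in each sex. Fewer cells of a type and less RNA per cell cannot be told apart in such bulk samples. The summed level of the slow fibre markers, genes of oxidative fibres, had medians of 1578 CPM in sham and 2212 CPM in SMC males and of 2112 CPM in sham and 3036 CPM in SMC females. Of the 10 markers, 7 were fitted higher and 3 (Myl2, Myl3 and Casq2) lower in SMC males, and 10 were fitted higher in SMC females. None of them passed the edgeR test, with FDRs of 0.612 or higher in males and 0.675 or higher in females. Their part in the difference was not tested.

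Members were called at a Benjamini-Hochberg FDR under 0.05 from the quasi-likelihood fit of edgeR. In males 0 of 28 were called, where 0% of all genes were called. DESeq2 and limma also called 0 members there, and 2 members, mt-Nd4l and mt-Te, were higher at an unadjusted p under 0.05, a level reached by 5.41% of all genes in that direction. In females 1 of 28 members, mt-Co2, was called, and 0.341% of all genes were. In the contrast averaged over the sexes mt-Co2 was again the 1 member called, where 2.36% of all genes were called. At an unadjusted p under 0.05, 9 of 13 mRNAs were higher in this averaged contrast and 0 lower, beside 7.90% of all genes higher at that level. The 9 were mt-Nd1, mt-Nd2, mt-Co2, mt-Atp8, mt-Nd3, mt-Nd4l, mt-Nd4, mt-Nd5 and mt-Cytb, which are not 9 independent results, since members moved together within libraries. Without both libraries of low slow fibre markers, 5 of 13 were, and with library totals in place of TMM, 4 of 13 were.

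**Figure D3:**
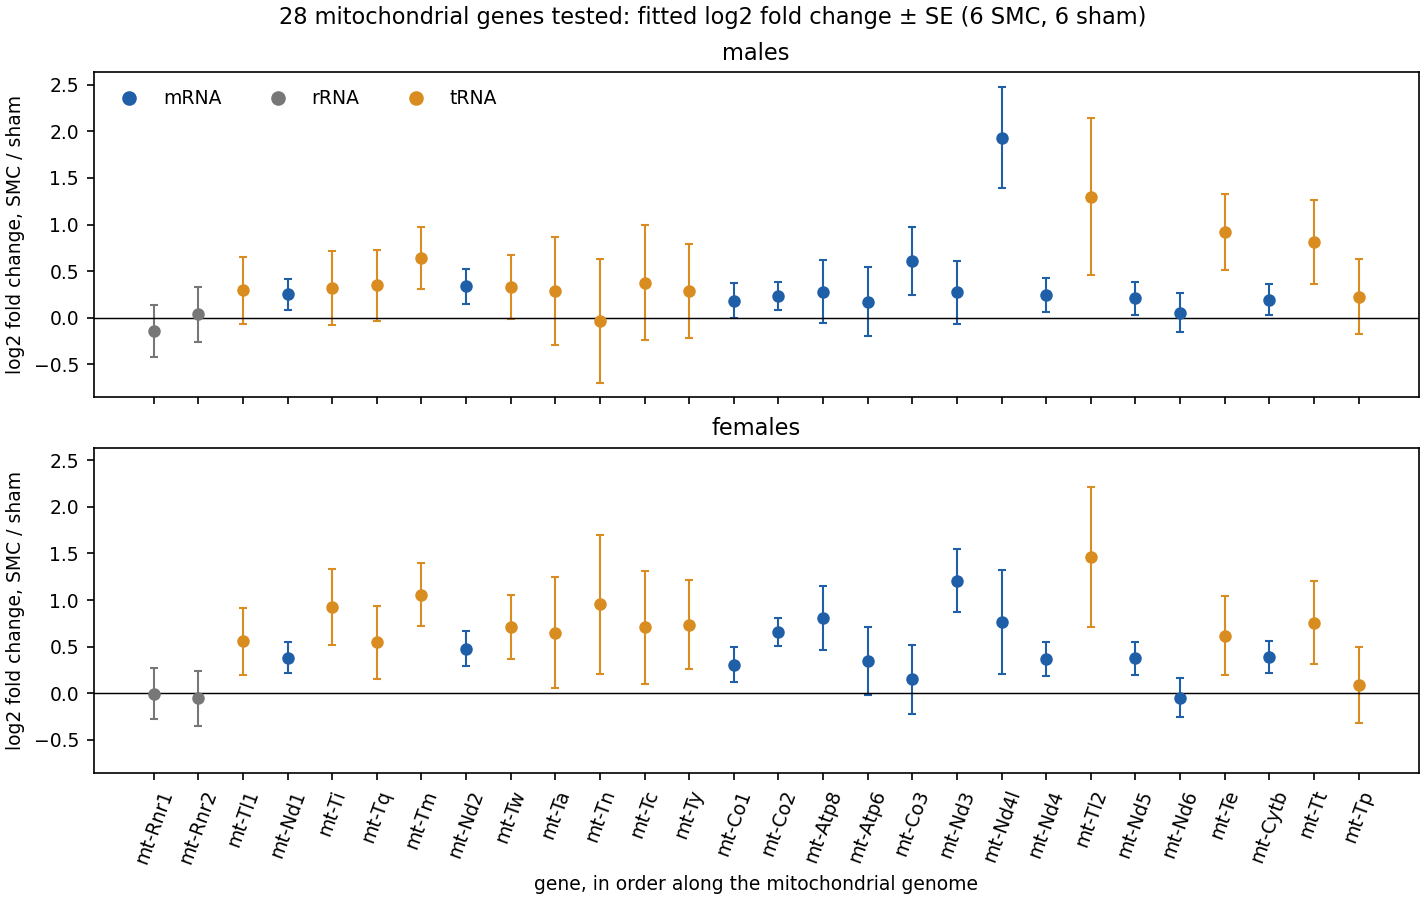
Fitted log2 fold change of SMC against sham for the 28 members tested, in males (top) and females (bottom), with error bars of 1 SE and genes in order along the mitochondrial genome. Most points lie above 0 in both sexes, and the rRNAs and mt-Nd6 lie near 0. The highest value in males, mt-Nd4l, rests on 1 library. The highest in females, mt-Tl2, ran from 0.481 to 2.37 when single libraries were left out.

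mt-Co2 encodes the complex IV subunit that receives electrons from cytochrome c. Its level was 21.4 to 37.7 CPM in female sham mice, with a median of 29.9, and 39.8 to 54.2 CPM in female SMC mice, with a median of 48.2. Every female SMC mouse lay above every female sham mouse, a separation found in that direction for 0.396% of all genes. In males, sham mice had 24.5 to 41.4 CPM with a median of 39.2, and SMC mice 29.9 to 53.6 CPM with a median of 43.2, and these ranges overlapped. mt-Co2 rose in females by 0.66 on the log2 scale (SE 0.147, edgeR FDR 0.0496). The exact permutation test over 6 against 6 mice gave a two-sided, unadjusted p of 0.00216, the smallest that this design allows, in 1 of 22 such tests. The full separation of the female groups fixes this p, so the test adds nothing to that separation. The change in males was 0.23 (SE 0.147, edgeR FDR 0.597), and the averaged change was 0.45 (SE 0.104, edgeR FDR 0.0246). The difference between the sexes was -0.42 in males minus females (SE 0.208, edgeR FDR 0.955), so a different response in the sexes was not shown.

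The call of mt-Co2 in females stood close to the threshold and depended on most choices tried. The female edgeR FDR was 0.0534 with no filter, 0.0772 with library totals, 0.0504 with TMM on nuclear genes, 0.0515 with median-of-ratios scaling and 0.0964 from the 12 females alone, and limma gave 0.0551. The averaged call was lost with library totals, at an edgeR FDR of 0.059. When its counts were summed with those of the nuclear copies Gm28661 and Gm13341, the female change was 0.48 with an edgeR FDR of 0.177 and the averaged change 0.34 with an edgeR FDR of 0.106, so both calls were lost. The copies on their own had female changes of 0.19 for Gm28661 and 0.44 for Gm13341, with edgeR FDRs of 0.724 and 0.336. The female call remained when male sham replicate 4, female sham replicate 9, female sham replicate 12 or male SMC replicate 14 was left out and was lost in the other 20 fits. The averaged call was lost without male SMC replicate 18, at a change of 0.41 and an edgeR FDR of 0.0551.

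mt-Nd3 and mt-Nd4l, small membrane subunits of complex I, had the largest averaged changes among the mRNAs, 0.74 and 1.35, and were not called. The averaged change of mt-Nd4l was 0.502 without male SMC replicate 15. mt-Nd3 lay at 1.957 to 5.78 CPM in female sham mice, with a median of 2.98, and at 4.26 to 16.1 CPM in female SMC mice, with a median of 5.88. The male groups were closer, with 2.97 to 6.47 CPM (median 4.97) in sham and 2.55 to 8.27 CPM (median 6.10) in SMC mice. Its female ranges overlapped, with 2 SMC mice far above the others in the plot of normalised counts per mouse. The log2 fold change of mt-Nd3 was 1.21 in females (SE 0.336, edgeR FDR 0.106) and 0.27 in males (SE 0.334, edgeR FDR 0.828).

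mt-Nd4l lay at 4.30 to 7.34 CPM in male sham mice, with a median of 6.36, and at 5.12 to 104.5 CPM in male SMC mice, with a median of 7.83. The value of 104.5 CPM came from male SMC replicate 15, and the other 5 male SMC mice had at most 8.91 CPM. That library had 3250 counts on mt-Nd4l, while mt-Nd4, which overlaps it by 7 bases, had 5692 CPM there, inside the group's range of 4106 to 6093 CPM. The male change of mt-Nd4l was 1.93 (SE 0.542, edgeR FDR 0.188) and 0.24 without replicate 15. In females it lay at 3.91 to 7.41 CPM in sham mice (median 5.12) and at 6.84 to 14.3 CPM in SMC mice (median 8.996), with a change of 0.77 (SE 0.555, edgeR FDR 0.624). The female ranges overlapped narrowly. The spread in the fit is shared by all groups, so the male value of 104.5 CPM also entered the female SE and FDR. With 1 library left out, the female change was 0.614 to 0.867, with edgeR FDRs of 0.0728 to 0.749. The two-sided, unadjusted exact permutation p in females was 0.00866, in 1 of 22 such tests, for a gene named because of its large averaged change.

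mt-Co1, the member with the highest CPM in these rRNA-depleted libraries, had among the smallest averaged changes of the mRNAs. Male sham mice had 12428 to 23454 CPM with a median of 22443, and male SMC mice 17212 to 29145 CPM with a median of 23859. Female sham mice had 10077 to 23599 CPM with a median of 18981, and female SMC mice 17983 to 26463 CPM with a median of 22226. The ranges overlapped in both sexes, and the lowest male sham value was again replicate 4. The log2 fold change was 0.19 in males (SE 0.187, edgeR FDR 0.784) and 0.31 in females (SE 0.187, edgeR FDR 0.539). Without male sham replicate 4 the male value was 0.0632, and without female sham replicate 8 the female value was 0.181.

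**Figure D4:**
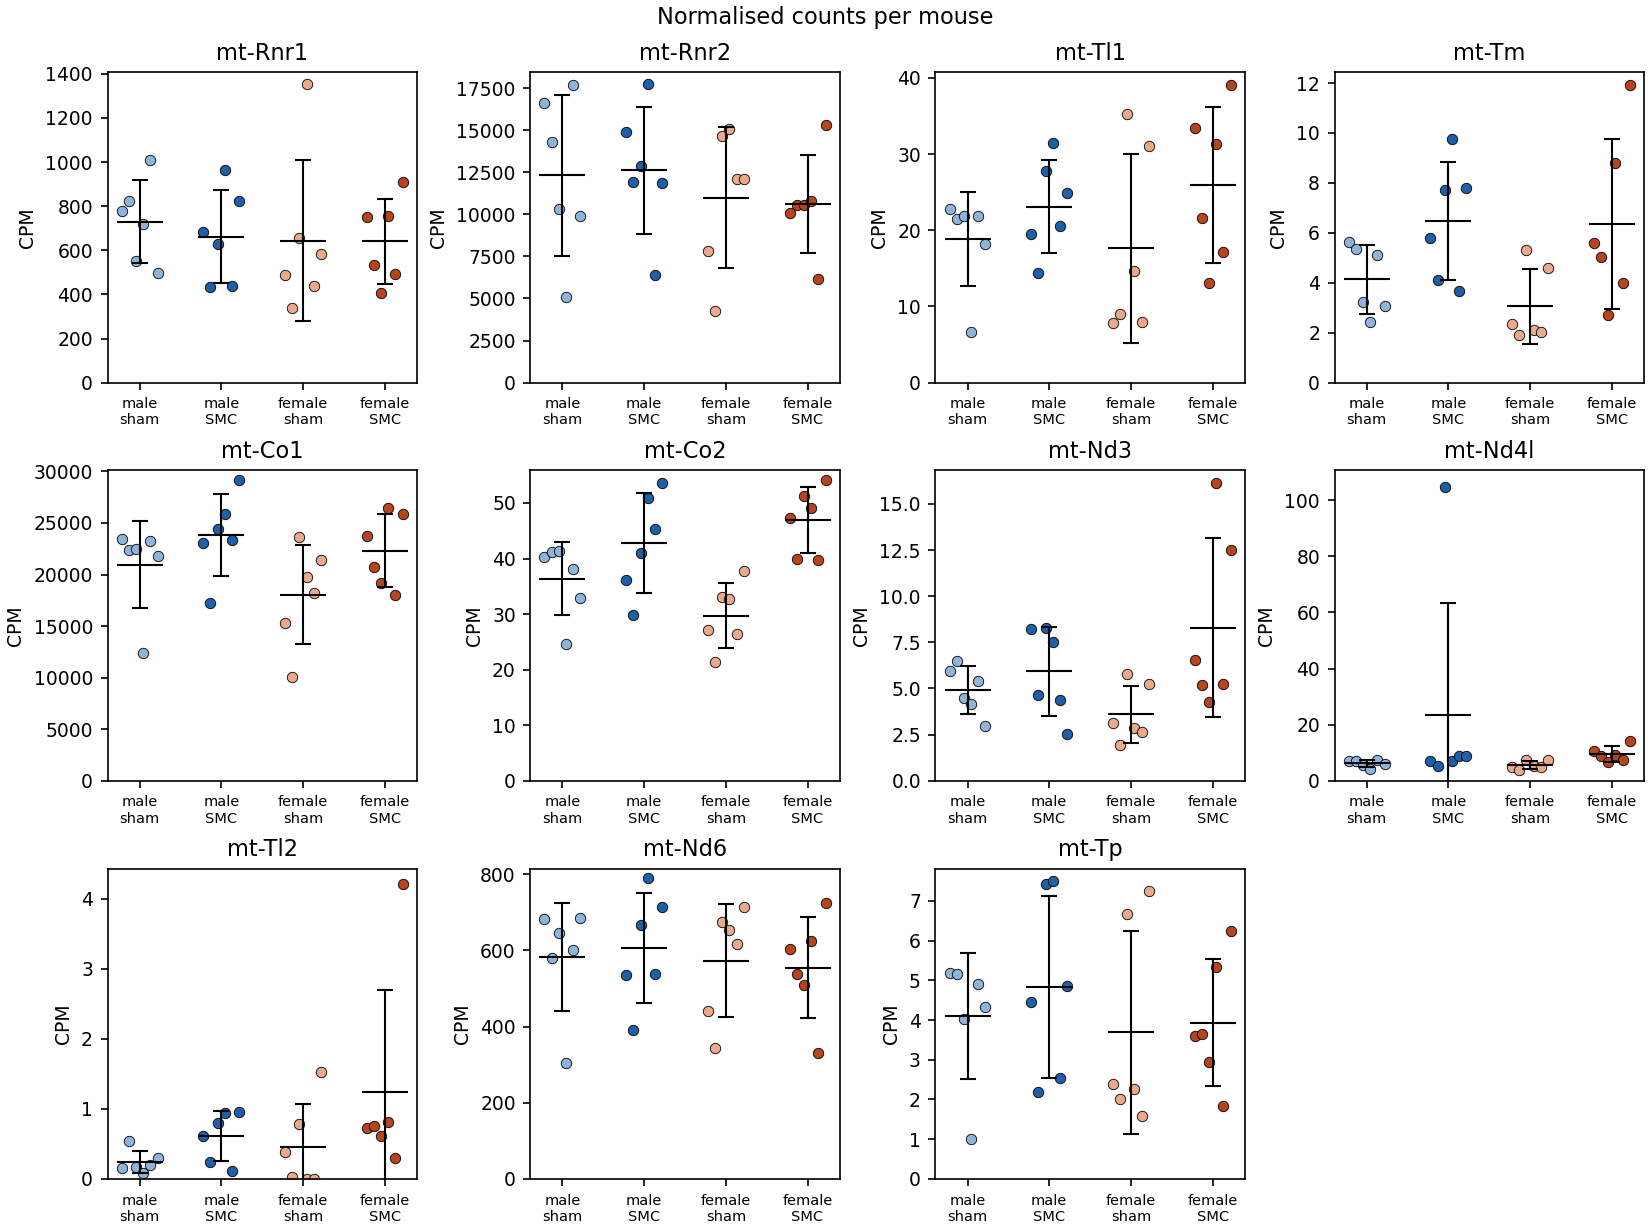
Normalised counts (CPM, each panel on its own linear axis from 0) of 11 members in the 4 groups. Points are mice (6 per group), the horizontal bar is the mean and the error bar the SD, with its lower end outside the axis for mt-Nd4l in male SMC mice and for mt-Tl2 in both female groups. mt-Co2 of female SMC mice lies at 39.8 CPM or higher and that of female sham mice at 37.7 CPM or lower.

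mt-Nd6 is the mRNA of the light strand and encodes a core subunit of complex I. It lay at 306 to 685 CPM in male sham mice (median 623), at 392 to 791 CPM in male SMC mice (median 602), at 343 to 714 CPM in female sham mice (median 635) and at 332 to 726 CPM in female SMC mice (median 571). The groups overlapped almost fully. Its log2 fold change was 0.05 in males (SE 0.208, edgeR FDR 0.956) and -0.05 in females (SE 0.208, edgeR FDR 0.957), and without male sham replicate 4 the male value was -0.0855. The 12 heavy-strand mRNAs, by comparison, had averaged changes of 0.25 to 1.35 (the highest being mt-Nd4l), with a median of 0.35. The top of this range came from the 5 mRNAs with nearly all words shared with other genes, at 0.26 to 1.35 with a median of 0.45. mt-Nd1, mt-Nd2, mt-Nd5 and mt-Cytb, with few or no shared words, had 0.29 to 0.41, and mt-Atp8, with none, had 0.54.

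A ratio within each library, chosen after its values were seen, set mt-Nd6 against other members without any scaling of libraries. mt-Nd6 had 9.49 to 12.1 counts per 1000 counts on the 12 heavy-strand mRNAs in female sham mice, with a median of 11.2, and 5.74 to 9.11 in female SMC mice, with a median of 8.55. The female groups did not overlap. In the same ratio to heavy-strand mitochondrial mRNA counts, 1.85% of the 16380 nuclear genes tested had all 6 female SMC mice below all 6 female sham mice. In male sham mice the mt-Nd6 ratio was 8.21 to 11.5, with a median of 9.52, and in male SMC mice it was 7.40 to 10.4, with a median of 8.29. The male groups overlapped, and the difference between the sexes was not tested. Set against mt-Nd5 alone, the female groups overlapped, with 56.5 to 83.8 mt-Nd6 counts per 1000 mt-Nd5 counts in sham and 35.0 to 57.6 in SMC mice. No test was run on either ratio. Neither ratio describes the light strand as a whole, since the 7 light-strand tRNAs tested had an averaged median change of 0.47. mt-Nd6 overlaps mt-Nd5, its neighbour on the other strand, by 14 bases, and whether reads were counted by strand is not given in the sources used here.

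**Figure D5:**
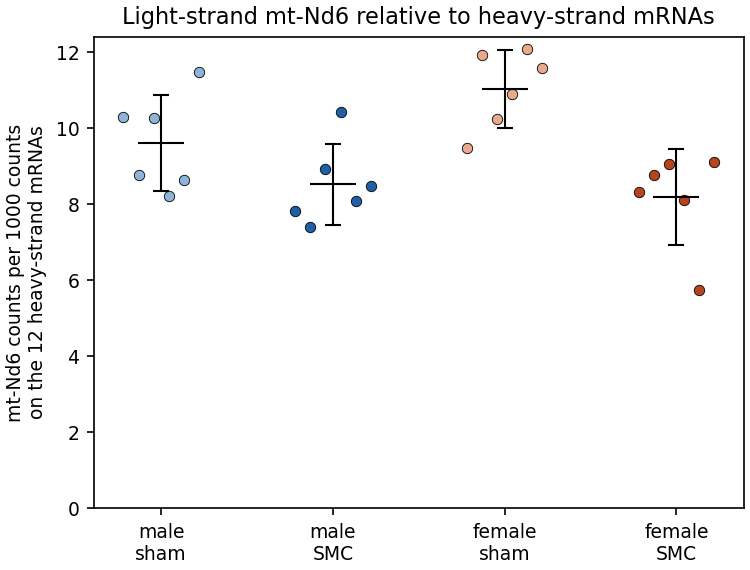
Counts of mt-Nd6 per 1000 counts on the 12 heavy-strand mRNAs in each mouse (6 per group), with the mean and SD. Female SMC mice lie at 9.11 or lower and female sham mice at 9.49 or higher, while the male groups overlap.

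Neither rRNA passed the test between SMC and sham mice in any contrast. mt-Rnr1, the RNA of the small subunit, lay at 498 to 1011 CPM in male sham mice (median 749) and at 432 to 966 CPM in male SMC mice (median 657). In females it lay at 341 to 1353 CPM in sham mice (median 534) and at 404 to 909 CPM in SMC mice (median 642). The highest female sham value, in replicate 10, stood far above the other 5, which reached 656.5 CPM, while mt-Rnr2 in that library was 15064 CPM, also the highest of its group. The log2 fold change of mt-Rnr1 was -0.14 in males (SE 0.277, edgeR FDR 0.906) and -0.00403 in females (SE 0.277, edgeR FDR 0.998), and 0.36 in females without replicate 10.

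mt-Rnr2, the RNA of the large subunit, had the higher level after depletion, with 7354 CPM per kilobase against 700 for mt-Rnr1. Within libraries there were 7.03 (male sham replicate 4) to 27.6 (female sham replicate 11) mt-Rnr2 counts per mt-Rnr1 count. The part of the depletion in this difference was not tested, so it cannot be read as RNA abundance. It lay at 5066 to 17700 CPM in male sham mice (median 12296) and at 6421 to 17767 CPM in male SMC mice (median 12420). In females it lay at 4229 to 15064 CPM in sham mice (median 12104) and at 6181 to 15329 CPM in SMC mice (median 10565). All 4 ranges overlapped widely. Its log2 fold change was 0.04 in males (SE 0.297, edgeR FDR 0.979) and -0.05 in females (SE 0.297, edgeR FDR 0.966), and the male value turned to -0.134 without male sham replicate 4. Per 100 mRNA counts, a library held 15.4 to 26.7 rRNA counts in sham and 10.2 to 24.4 in SMC males, and 15.7 to 27.1 in sham and 11.5 to 20.2 in SMC females.

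The tRNAs were the class with the fewest counts in these libraries and were dominated by a few genes. mt-Tw, which carries tryptophan, held 47.95% of the tRNA counts, with a mean of 704 CPM per kilobase. It was followed by mt-Tl1 at 285, mt-Ti at 103, mt-Tq at 73.4 and mt-Tm at 72.5 CPM per kilobase. Of the 22 tRNAs, 13 passed the filter on low counts and were tested. The other 9 were mt-Tf, mt-Tv, mt-Ts1, mt-Td, mt-Tk, mt-Tg, mt-Tr, mt-Th and mt-Ts2, of which mt-Td and mt-Tk had 1 count each in all 24 libraries. Heavy-strand tRNAs held 87.4% of the tRNA counts and light-strand tRNAs 12.6%. The sequences of the tRNAs described below and of mt-Tw are shown as DNA letters from GENCODE M21, with the anticodon in capitals, because the gene symbols alone do not tell mt-Tl1 and mt-Tl2, both leucine tRNAs, apart. mt-Tl1 reads leucine codons of the UUR kind and mt-Tl2 those of the CUN kind, mt-Tm reads methionine codons and mt-Tp proline codons.

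mt-Tl1: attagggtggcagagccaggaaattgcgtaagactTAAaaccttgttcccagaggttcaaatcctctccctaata

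mt-Tl2: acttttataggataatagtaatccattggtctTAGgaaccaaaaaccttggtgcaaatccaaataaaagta

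mt-Tm: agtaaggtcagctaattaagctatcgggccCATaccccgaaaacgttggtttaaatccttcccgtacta

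mt-Tp: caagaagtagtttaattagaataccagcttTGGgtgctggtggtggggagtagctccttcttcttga

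mt-Tw: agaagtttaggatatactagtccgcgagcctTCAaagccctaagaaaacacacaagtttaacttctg

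Of the 13 tRNAs tested, 12 had a log2 fold change above 0 in males, with a median of 0.33 that was 0.147 without male sham replicate 4, and 13 in females, with a median of 0.71. With library totals in place of TMM the counts were 12 in each sex, and without both libraries of low slow fibre markers they were 13 of 14, where 1 more tRNA passed the filter. None of the 13 was called by edgeR in any contrast, with 1 higher at an unadjusted p under 0.05 in males (5.41% of all genes), 2 in females (5.02%) and 6 in the averaged contrast (7.90%). The averaged median was 0.70 over 6 heavy-strand tRNAs and 0.47 over 7 light-strand tRNAs. Levels varied widely among sham mice: in females, mt-Tl1 was 7.80 to 14.6 CPM in 4 mice and 31.0 and 35.3 CPM in replicates 12 and 9. Without female sham replicate 9 the female median was 1.11, and without female SMC replicate 24 it was 0.415.

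mt-Tm had the smallest adjusted p among the tRNAs. It lay at 2.44 to 5.65 CPM in male sham mice (median 4.16) and at 3.65 to 9.76 CPM in male SMC mice (median 6.76). In females it lay at 1.93 to 5.32 CPM in sham mice (median 2.23) and at 2.72 to 11.9 CPM in SMC mice (median 5.32). The ranges overlapped in both sexes. The log2 fold change was 0.64 in males (SE 0.332, edgeR FDR 0.494), 1.05 in females (SE 0.338, edgeR FDR 0.157) and 0.85 when averaged (SE 0.237, edgeR FDR 0.0567). It passed the threshold in the averaged contrast in DESeq2, with a minimum of 10 counts in every library, and without female sham replicate 9 or female SMC replicate 21.

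mt-Tl2 had the largest averaged change of the tRNAs, 1.38 (SE 0.565, edgeR FDR 0.19), at very low counts. Male sham mice had 2 to 16 counts with a median of 5.5, and male SMC mice 3 to 25 counts with a median of 19.5. Female sham mice had 0 to 41 counts with a median of 4.5, and female SMC mice 10 to 140 counts with a median of 19.5. The 140 counts, 4.21 CPM, came from female SMC replicate 24, and the next female SMC mouse had 0.809 CPM. The female change was 1.46 (SE 0.75, edgeR FDR 0.43), 0.48 without that library and 2.37 without female sham replicate 12.

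Among the tRNAs tested, mt-Tl1 and mt-Tp had the smallest averaged changes. mt-Tl1 lay at 6.62 to 22.9 CPM in male sham mice (median 21.7), at 14.5 to 31.5 CPM in male SMC mice (median 22.7), at 7.80 to 35.3 CPM in female sham mice (median 11.8) and at 13.03 to 39.1 CPM in female SMC mice (median 26.5). Its averaged change was 0.42 (SE 0.254, edgeR FDR 0.403). mt-Tp lay at 0.993 to 5.17 CPM in male sham mice (median 4.63), at 2.18 to 7.49 CPM in male SMC mice (median 4.65), at 1.58 to 7.26 CPM in female sham mice (median 2.32) and at 1.83 to 6.23 CPM in female SMC mice (median 3.63). Its averaged change was 0.16 (SE 0.288, edgeR FDR 0.828). Both genes overlapped between SMC and sham mice in both sexes.

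No member passed the test between the sexes. Among sham mice, 24 of 28 members were higher in males than in females, with a median log2 difference of 0.19, against 49.6% of all genes above 0. edgeR called 0 of 28 members in this contrast, where 1.97% of all genes were called, and 0 had an unadjusted p under 0.05, beside 15.5% of all genes. The closest was mt-Co2, at 0.29 (SE 0.147, edgeR FDR 0.343). Among SMC mice 18 of 28 members were higher in males, against 49.7% of all genes, with a median of 0.05, and 0 of 28 members were called, where 1.03% of all genes were called. There 1 member, mt-Nd4l at 1.30, had an unadjusted p under 0.05, beside 10.5% of all genes, and it rests on male SMC replicate 15. In the test of the difference between the male and female responses, 0 of 28 members and 0% of all genes were called by edgeR, and 0 members had an unadjusted p under 0.05, beside 5.13% of all genes. DESeq2 called 0 members in these 3 contrasts. The response was larger in males for 7 of 28 members, against 51.6% of all genes, and the median difference of males minus females was -0.17.

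Nuclear genes that act on the mitochondrial genome and its RNA were described from 8 lists of 101 genes, all of which were tested. 0 passed the edgeR threshold in males, where 1 was higher and 5 lower at an unadjusted p under 0.05, beside 5.41% of all genes higher and 5.59% lower. In females 0 passed, with 5 higher and 8 lower at that level, beside 5.02% and 7.47% of all genes. In the averaged contrast 1 of 101 was called, beside 2.36% of all genes, and the median over the lists was -0.0139. The called gene was Gatc, a subunit of the amidotransferase that completes mitochondrial glutaminyl-tRNA. Males had 19.3 CPM ± 2.05 under sham and 21.4 CPM ± 0.830 under SMC, and females 18.99 CPM ± 2.69 under sham and 23.2 CPM ± 1.501 under SMC (SD, n = 6 each). Gatc rose by 0.22 on the log2 scale (SE 0.0586, edgeR FDR 0.0449), and the call was lost in 20 of 24 fits that left out 1 library.

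The other nuclear genes are given as values, since none was called by edgeR. Of 13 genes of replication and the nucleoid, 5 were higher in the averaged contrast. Tfam, which packages the mitochondrial DNA and starts its transcription, had a change of -0.20 (SE 0.0751, edgeR FDR 0.152), and Mgme1, an exonuclease of its replication, one of 0.20 (SE 0.0805, edgeR FDR 0.189). The 10 transcription genes had a median of -0.0273, with Mterf1a, a termination factor, at -0.45 and the polymerase Polrmt at -0.06. Among the 13 genes of transcript processing (median 0.00552) Ptcd1 stood at -0.10 and Trmt10c, a subunit of the RNase P that cuts the 5′ ends of the tRNAs, at -0.14. Among the 8 genes of mRNA stability and decay (median 0.0165) Slirp, which protects the mRNAs, and Pde12, which shortens poly(A) tails, both stood at -0.13.

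In the list of tRNA modification and CCA addition, 14 of 17 genes lay below 0 in the averaged contrast, beside 52.4% of all genes, with a median of -0.0597. Whether this list differed from the others was not tested. Its leading genes were Cdk5rap1, which thiomethylates tRNAs, at -0.41 (SE 0.115, edgeR FDR 0.0588), and Trnt1, which adds the CCA end to every tRNA, at -0.21 (SE 0.0627, edgeR FDR 0.0687). Both passed the threshold in DESeq2 and with library totals. The latter shifted the median of all genes to -0.144 in this contrast, which favours calls of genes below 0. Cdk5rap1 lay at -0.71 in females and -0.10 in males. Of the 22 aminoacyl-tRNA synthetases and partners, 12 were higher, with Kars, which charges lysine tRNAs in mitochondria and cytosol, at 0.17 (SE 0.0593, edgeR FDR 0.132). The 9 genes of rRNA modification had a median of 0.0157, with Trub2 at 0.11 and Rpusd4 at -0.16, both pseudouridine synthases. The 9 regulators of mitochondrial biogenesis had a median of -0.0188, with the corepressor Nrip1 at -0.23 and the coactivator Pprc1 at 0.08.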

How the data were processed

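RNA of 24 gastrocnemius muscles, 1 mouse per library, was analysed. The authors deposited raw counts of reads per gene, without normalization. They isolated total RNA, removed rRNA and made strand-specific libraries. The submitters' processing notes name cutadapt 1.16, STAR 2.7.9a, featureCounts 1.6, DESeq2 1.34.0 and GRCm39. The annotation release, the strand setting and the treatment of reads with several matches are not given in the sources used here. Names, lengths, strands and sequences came from GENCODE M21, of an older build, so no coordinates are printed.

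Groups followed the labels. Pairs of libraries within groups differed beyond counting noise (60 pairs). edgeR 4.0.16 (R 4.3.3) with filterByExpr (16408 genes kept), TMM and the quasi-likelihood test was fitted to all 24 libraries with 1 mean per group. Tests were two-sided, with Benjamini-Hochberg adjustment over all genes and a threshold of 0.05. log2 CPM used a prior count of 2. Exact permutation tests used all 924 relabelings of 6 against 6. Alternatives were DESeq2 1.42.0, limma 3.58.1 with voom weights, other filters and scalings, 1 sex alone, and libraries left out. On simulated data for females, 75.5% of 200 genes with a log2 change of 1 were called among 16408, and 3.82% of the calls were unchanged genes. Counts were drawn for genes picked at random from the fitted spread, without outlying libraries or genes that move together. The rate for the mitochondrial members is therefore not given by it. Smaller changes, such as the medians of the mRNAs, were not simulated. Library totals of 23026627 to 36880413 set the counting error, and the tests use it with the spread between mice.

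Members and lists were chosen with earlier results of these data known. Named members were both rRNAs, mt-Nd6, any member called in a contrast, and the 2 largest and 2 smallest averaged changes of the mRNAs and of the tRNAs tested. From each nuclear list, called genes and the 2 smallest p-values of the averaged contrast were named.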

Additional observations from a re-analysis of the deposited data

Results flagged for a closer look

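Within groups of 6 mice, 60 sets of values of the named members and class shares were tested for a value far from the others by Dixon's criterion, and 8 stood out. About 3 would be flagged by chance in 60 independent sets. These sets are not independent, and mt-Nd4l and mt-Tl2 were named for large changes in the same data. The 8 flags can therefore not be set against that number. Of these, 5 came from male sham replicate 4, the library of low slow fibre markers. It had 6.623 CPM of mt-Tl1 (the other 5 mice 18.14 to 22.85), 12428 CPM of mt-Co1, 305.7 CPM of mt-Nd6 (others 581.3 to 684.7), 0.9934 CPM of mt-Tp (others 4.014 to 5.175), and 3.559% of its counts on mitochondrial mRNAs (others 6.434 to 8.117). The other 5 mice had at least 21791 CPM of mt-Co1. The remaining flagged values were single genes. mt-Rnr1 was 1353 CPM in female sham replicate 10 (others 340.6 to 656.5). mt-Nd4l was 104.5 CPM in male SMC replicate 15 (others 5.117 to 8.912), where its nuclear copy Gm10222 had no more than 13.35 CPM. mt-Tl2 was 4.212 CPM in female SMC replicate 24 (others 0.2994 to 0.8093), where its neighbour mt-Ts2 had 2 counts and its neighbour mt-Nd5 12588 CPM, the highest of the group.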

How the results depend on the processing

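Counts of members called were 1 in females and 1 in the averaged contrast. In females DESeq2 called 2 (mt-Co2 and mt-Nd3), and 0 were called with no filter, library totals without TMM, TMM on nuclear genes, median-of-ratios scaling, limma voom weights or the 12 samples of a sex (0 each). Leaving out 1 library gave 0 to 1. In the averaged contrast DESeq2 called 4 (mt-Nd2, mt-Co2, mt-Nd3 and mt-Tm), a minimum of 10 counts gave 2 (mt-Co2 and mt-Tm), library totals gave mt-Nd4l in place of mt-Co2, and leaving out 1 library gave 0 to 2. In males, the interaction and both sex contrasts 0 members were called throughout.

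Over all genes, males had 0 calls, 133 by DESeq2, 93 by limma and 0 to 78 without 1 library. Females had 56, against 268 by DESeq2, 215 with library totals (13 higher, in place of 20 of 56), 37 with median-of-ratios scaling, 16 by limma, 14 from 1 sex alone, 155 without both libraries of low slow fibre markers and 0 to 147 without 1 library. The averaged contrast had 388 (169 higher), against 778 by DESeq2, 189 with no filter, 1861 with library totals (68 higher) and 236 to 501. The interaction had 0, 1 by DESeq2 and 0 to 1. Male against female sham had 324, against 575 by DESeq2, 179 with library totals, 511 without both libraries and 187 to 487. Male against female SMC had 169, against 322 by DESeq2, 546 by limma, 289 without both libraries and 115 to 221. The cause was not tested.

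Values near 0 changed sign. mt-Rnr1 in females was 0.000769 by DESeq2, 0.00724 with no filter and 0.00079 with median-of-ratios scaling. With library totals mt-Rnr2 in males was -0.117, mt-Nd6 -0.0892 in males and -0.124 averaged, mt-Tp in females -0.00464, Trub2 -0.022 and Pprc1 -0.0502 averaged. Without both libraries of low slow fibre markers mt-Rnr2 in males was -0.134, mt-Nd6 -0.0855 in males and -0.0969 averaged, mt-Tp in females -0.00498 and Polrmt 0.00152. mt-Nd6 averaged was -0.0334 by limma. Without 1 library, mt-Rnr1 ranged from -0.136 to 0.355 in females and -0.143 to 0.106 averaged. mt-Rnr2 ranged from -0.134 to 0.162 in males, -0.224 to 0.0653 in females and -0.0954 to 0.0556 averaged. mt-Nd6 ranged from -0.0855 to 0.153 in males, -0.16 to 0.0698 in females and -0.064 to 0.0585 averaged, and mt-Tp in females from -0.0972 to 0.398. The mRNA and tRNA class medians kept their sign. Without 1 library the mRNA median ran from 0.125 to 0.309 in males and from 0.263 to 0.45 in females. The tRNA median ran from 0.147 to 0.474 in males and from 0.415 to 1.11 in females, and the rRNA median in females from -0.18 to 0.205.

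No paired analysis was possible because the labels give no pairing of mice. The study's methods state that sham and SMC mice were kept in pairs in some experiments, and whether that holds here is not given. Low counts limit the tRNAs most. Reads shared with annotated nuclear copies limit mt-Co2, mt-Atp6, mt-Co3, mt-Nd3 and mt-Nd4l. Copies without annotation were not searched, also for mt-Atp8.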
